A study of Mus musculus with 30 samples.

Results

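Polycomb proteins keep developmental genes silent by modifying histones, and 10 genes that encode them were described here across mouse epiblast stem cells and definitive endoderm. The genes were a fixed list taken by symbol: Ezh1, Ezh2, Eed, Suz12 and Jarid2 of Polycomb repressive complex 2 (PRC2), and Rnf2, Cbx2, Cbx7, Pcgf2 and Bmi1 of Polycomb repressive complex 1 (PRC1). They are 10 of the 29555 gene identifiers in the RNA tables, and all 10 passed the filter on low counts in each RNA comparison. Peaks of open chromatin that overlapped these genes or lay within 2 kb of either end were described with them.

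Epiblast stem cells (EpiSCs) are pluripotent cells that resemble the epiblast after implantation, and definitive endoderm (DE) is the germ layer from which the lining of the gut and its glands arises. All EpiSCs were grown on feeder cells in N2B27 medium with Fgf2, ActivinA and the Wnt inhibitor NVP-TNKS656, were used at passages 5 to 10, and were lifted with collagenase, which the labels describe as a way to leave the feeders behind. DE was made from C57BL/6 (B6) EpiSCs with ActivinA and CHIR99201 for 16 h, followed by ActivinA and LDN193189 for 24 h, and CXCR4+ cells were taken by magnetic sorting; the labels also give a total of 46 h. RNA-seq covered 5 B6 EpiSC libraries, 4 B6 DE libraries, and EpiSCs of PWK/PhJ (3 libraries), B6.129 F1 (3) and DBA/2J (1). ATAC-seq, which measures how open chromatin is to a transposase, covered 4 B6 EpiSC, 4 B6 DE, 2 PWK/PhJ and 1 DBA/2J library.

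PRC2 places methyl groups on lysine residues of histone H3 (H3K27me3) through its catalytic subunit, Ezh1 or Ezh2, which needs Eed and Suz12 to be active. PRC1 ubiquitinates histone H2A through Rnf2 (Ring1b), and its make-up is set by which Pcgf protein it holds (Pcgf2, also called Mel18, or Bmi1, which is Pcgf4) and, in its canonical form, by a Cbx protein that reads H3K27me3. In mouse pluripotent stem cells Cbx7 is known as the main Cbx of canonical PRC1, and Cbx2 and other Cbx proteins are known to take its place on differentiation.

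RNA depth lay between 22829536 and 66563933 counts per library, with B6 DE replicates 4 and 51 far deeper than the other 14 libraries, which had 22829536 to 29947841, and ATAC depth lay between 3751526 and 9571127 counts in peaks. The labels call the samples biological replicates without naming separate cultures or animals, so p-values measure the spread between these samples. All 9 endoderm markers listed were higher in DE, among them Cxcr4, which encodes the protein the DE cells were sorted for. Of 8 EpiSC markers 5 were lower and 2, Fgf5 (7.52-fold) and Otx2 (3.57-fold), were higher, and the list's sum overlapped between B6 EpiSCs (2869 to 4398 CPM) and DE (3017 to 3981 CPM). Pou5f1, the pluripotency factor, was at 1007 to 1371 CPM (counts scaled to a common library size, per 1000000) in B6 EpiSCs. In DE replicate 2 Pou5f1 stood at 35.2 CPM and in the other 3 DE libraries at 2.46 to 6.39 CPM. The 10 feeder fibroblast markers summed to 62.1 to 2696 CPM across the B6 EpiSC libraries and 65.5 to 226.9 CPM in DE. In PWK they summed to 2148 to 3027 CPM, in B6.129 F1 to 139.2 to 215.6 CPM and in DBA to 1468 CPM. These sums are given again beside some of the results. The mesoderm list summed to 107.4 to 568.3 CPM in B6 EpiSCs and 4.10 to 20.3 CPM in DE, and the neuroectoderm list to 341.6 to 750.2 and 5.35 to 19.1 CPM. Only 2 to 3 of the 8 mesoderm and 1 to 3 of the 6 neuroectoderm genes exceeded 1 CPM in the B6 EpiSC libraries. T, a mesoderm gene, averaged 274 CPM there, and Nes, a neuroectoderm gene, 499 CPM.

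Promoter sequences are shown for the 5 members whose RNA levels did not overlap between B6 EpiSCs and DE, since these carry the main contrast. Each is the 250 bases before the annotated start site, 5′ to 3′ on the gene's strand, from RefSeq on GRCm38.p6 (the assembly that mm10, the build named by the submitters, is based on). Capitals mark a CCAAT box, which reads ATTGG where it lies on the other strand, or an E2F-type motif. The E2F-type letters searched on both strands were TTGGCGC, and with it the forms TTCCCGC, as well as the forms TTCGCGC, and lastly also TTGCCGC. No E2F-type match overlapped a CCAAT box in the windows shown.
Ezh2, chr6:47595031-47595280, minus strand: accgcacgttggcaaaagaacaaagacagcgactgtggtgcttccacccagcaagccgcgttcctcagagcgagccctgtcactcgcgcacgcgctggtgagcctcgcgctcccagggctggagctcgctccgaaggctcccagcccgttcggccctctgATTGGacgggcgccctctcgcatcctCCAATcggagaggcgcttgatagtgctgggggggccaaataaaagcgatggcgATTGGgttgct
Suz12, chr11:79992856-79993105, plus strand: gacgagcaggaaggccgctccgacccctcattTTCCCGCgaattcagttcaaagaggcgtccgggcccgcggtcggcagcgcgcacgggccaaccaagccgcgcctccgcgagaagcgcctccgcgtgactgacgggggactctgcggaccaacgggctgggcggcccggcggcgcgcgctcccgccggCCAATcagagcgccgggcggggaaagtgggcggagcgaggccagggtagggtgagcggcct
Cbx7, chr15:79932647-79932896, minus strand: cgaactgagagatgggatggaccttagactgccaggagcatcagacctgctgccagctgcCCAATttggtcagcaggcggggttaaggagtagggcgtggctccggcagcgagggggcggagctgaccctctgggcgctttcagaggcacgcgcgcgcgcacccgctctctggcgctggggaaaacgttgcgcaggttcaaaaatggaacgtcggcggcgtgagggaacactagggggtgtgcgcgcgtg
Pcgf2, chr11:97699649-97699898, minus strand: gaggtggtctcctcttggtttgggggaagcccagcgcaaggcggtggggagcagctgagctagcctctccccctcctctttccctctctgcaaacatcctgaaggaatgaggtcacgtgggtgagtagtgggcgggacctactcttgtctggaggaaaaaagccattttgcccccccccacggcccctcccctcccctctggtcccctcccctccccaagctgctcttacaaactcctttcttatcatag
Bmi1, chr2:18676768-18677017, plus strand: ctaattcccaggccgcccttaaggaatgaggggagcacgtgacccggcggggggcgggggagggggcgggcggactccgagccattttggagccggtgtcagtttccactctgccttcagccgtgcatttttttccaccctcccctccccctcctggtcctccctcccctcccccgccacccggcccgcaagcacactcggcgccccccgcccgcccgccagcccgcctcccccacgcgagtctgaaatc
RefSeq windows were found for 9 of the 10 genes, with 2 for Jarid2; Cbx2 had no window. Of these 10 windows 4 held a CCAAT box, against 33.8% of all 32851 windows of this length, and 1 (Suz12) held an E2F-type motif, against 7.89%. The Ezh2 window held 3 CCAAT boxes. The 5 windows shown were 59.6% to 73.6% G or C, against a median of 52.4% over all windows. The start sites used for Ezh2, Cbx7 and Pcgf2 lie inside the span of the gene record, which reaches further upstream, so these 3 windows fall at least partly within the gene as annotated.

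The first comparison asked how the Polycomb genes differ between EpiSCs and the DE made from them. In B6 DE, Cbx7 RNA was 16.2-fold lower, Pcgf2 4.24-fold, Suz12 2.07-fold and Ezh2 1.46-fold lower, while Bmi1 was 3.33-fold and Cbx2 1.70-fold higher. Ezh1, Eed, Jarid2 and Rnf2 did not pass the test. Thus 6 of 10 members were called, 2 higher and 4 lower, at an adjusted p under 0.05 (edgeR quasi-likelihood test, Benjamini-Hochberg over all genes tested). Over all 14085 genes tested 62% were called, 31.5% higher and 30.6% lower, so the number of members called was near the background. For 5 of the 10 the libraries did not overlap between the groups, against 55.6% of all genes, and the members' median log2 change was -0.02 beside -0.01 over all genes. In these bulk samples fewer cells of a type and less RNA per cell cannot be told apart. Levels below are CPM after TMM scaling over all 16 RNA libraries; they are not per length, so they compare libraries and not genes.

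**Figure D1:**
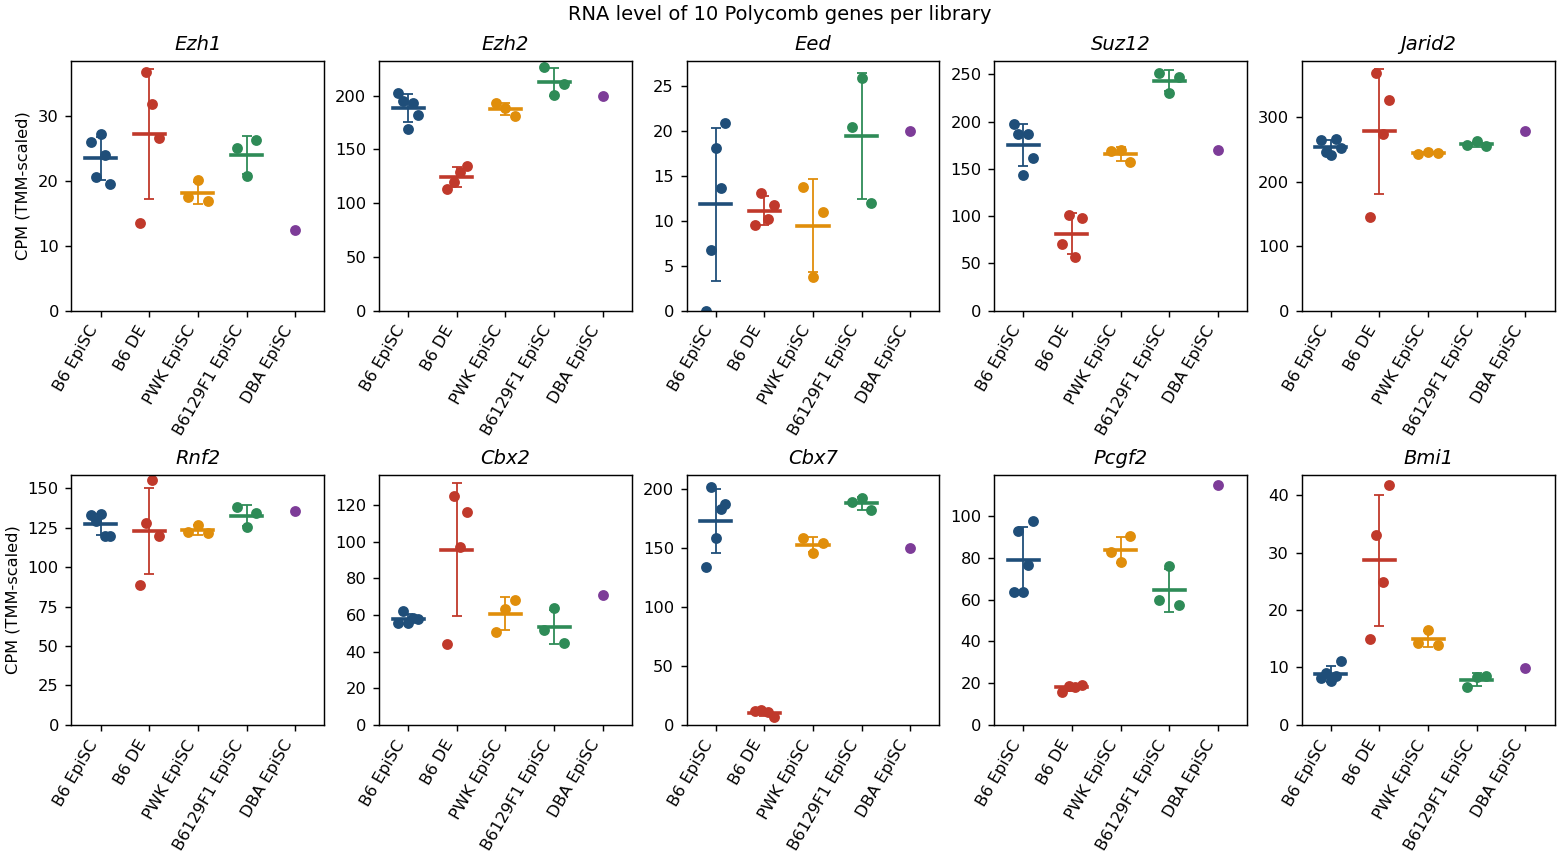
CPM (linear axes, each from 0) of the 10 genes in the 16 RNA libraries; each point is a library, horizontal bars are group means and error bars are SD (none for the single DBA library). Cbx7 and Pcgf2 are low in all 4 DE libraries, and Bmi1 is high in DE and intermediate in PWK. DE replicate 2 is the lowest DE library for every gene but Suz12 and Cbx7, and by less for Ezh2, Eed and Pcgf2.

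Among the PRC2 enzymes, Ezh2, the main methyltransferase of dividing cells, stood at 202, 195, 169, 193 and 182 CPM in B6 EpiSC replicates 1, 2, 4, 44 and 51. In DE replicates 2, 4, 44 and 51 it stood at 113, 119, 129 and 135 CPM. Every DE library lay under every EpiSC library, and the log2 change was -0.55 (SE 0.11, adjusted p 0.00141). Ezh1, its paralog with the weaker methyltransferase activity, stood at 26.0, 20.5, 27.2, 23.9 and 19.5 CPM in EpiSCs and at 13.6, 36.8, 31.8 and 26.7 CPM in DE. DE replicate 2 was the lowest of these 9 libraries and DE replicates 4 and 44 the highest, so the groups overlapped (log2 change 0.26, SE 0.25, adjusted p 0.395). Without DE replicate 2 the Ezh1 change was 0.47 with an adjusted p of 0.0335, and with DE replicates 2 and 44 alone it was -0.01 (adjusted p 0.985).

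Suz12, the scaffold subunit of PRC2, stood at 197, 187, 143, 186 and 161 CPM in the EpiSC libraries and 70.0, 101, 57 and 98.2 CPM in DE. The groups did not overlap, and the log2 change was -1.05 (SE 0.19, adjusted p 0.000658). Eed, which binds H3K27me3 and activates the enzyme, was the least even member: 0, 6.75, 18.1, 13.6 and 20.9 CPM in EpiSCs and 9.50, 13.2, 10.2 and 11.8 CPM in DE. EpiSC replicate 1 had 0 counts for Eed, which allows up to 0.12 CPM of its total counts for counting error only, while the other RNA libraries had 110 to 787. Its log2 change was -0.04 with an SE of 0.92 (adjusted p 0.973), so a change of a few fold could not be resolved.

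Jarid2 helps to bring PRC2 to its targets. It stood at 265, 246, 241, 266 and 252 CPM in EpiSCs and 144, 368, 274 and 327 CPM in DE, where replicate 2 was under all EpiSC libraries and the other 3 were above them. The log2 change was 0.17 (SE 0.21, adjusted p 0.496), and without DE replicate 2 it was 0.38 (adjusted p 0.0106). With only the 2 deeply sequenced DE libraries, replicates 4 and 51, it was 0.47 (adjusted p 0.00313), and with DE replicates 2 and 44 alone it was -0.24 (adjusted p 0.39).

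Cbx7 had the largest change of the 10 genes. It stood at 134, 202, 158, 183 and 188 CPM in the EpiSC libraries and at 11.6, 12.2, 10.6 and 6.64 CPM in DE. Each DE library was more than 10-fold under the lowest EpiSC library (log2 change -4.02, SE 0.23, adjusted p 8.55e-07). Cbx2, which can compact chromatin as well as read H3K27me3, stood at 55.6, 62.4, 55.7, 58.1 and 57.6 CPM in EpiSCs and 44.0, 125, 96.9 and 116 CPM in DE. DE replicates 4, 44 and 51 were above all EpiSC libraries and replicate 2 was under them (log2 change 0.77, SE 0.24, adjusted p 0.0162). The Cbx2 call was lost without DE replicate 4 (0.62, adjusted p 0.0513) and with DE replicates 2 and 44 alone (0.33, adjusted p 0.30). The call was also lost with the shared replicate numbers as a block (0.67, adjusted p 0.0766).

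Pcgf2 stood at 63.9, 93.1, 63.9, 76.8 and 97.9 CPM in EpiSCs and 15.8, 18.8, 18.0 and 19.3 CPM in DE. The DE libraries lay within a narrow range far under the lowest EpiSC value (log2 change -2.08, SE 0.17, adjusted p 4.36e-06). In EpiSC replicates 1, 2, 4, 44 and 51 the feeder markers summed to 62.1, 1139, 372, 1038 and 2696 CPM. Pcgf2 was also highest in replicate 51, and Cbx7 was lowest in replicate 1 but highest in replicate 2. The part of feeder cells in these levels was not tested. Bmi1 went the other way from Pcgf2, from 8.17, 9.03, 7.55, 8.50 and 11.1 CPM in EpiSCs to 15.0, 33.0, 24.9 and 41.8 CPM in DE. All DE libraries were above all EpiSC libraries, and the spread within DE was wide (log2 change 1.74, SE 0.26, adjusted p 0.000239). Rnf2, the ubiquitin ligase common to the PRC1 forms, stood at 133, 129, 134, 120.1 and 119.6 CPM in EpiSCs and 88.8, 128, 155 and 119.7 CPM in DE, groups that overlapped (log2 change 0.00, SE 0.15, adjusted p 1).

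Within a library, the ratio of a pair of paralogs does not depend on scaling. The log2 ratio of Cbx7 to Cbx2 counts was 1.27, 1.70, 1.51, 1.65 and 1.70 in the EpiSC libraries and -1.93, -3.36, -3.19 and -4.13 in DE. The means of 1.57 ± 0.18 (SD, n = 5) and -3.15 ± 0.91 (SD, n = 4) differed by -4.72 (SE 0.46). The log2 ratio of Pcgf2 to Bmi1 was 2.97, 3.37, 3.08, 3.18 and 3.14 in EpiSCs and 0.08, -0.81, -0.47 and -1.11 in DE, a difference of -3.73 (SE 0.26). The exact two-sided permutation test gave p = 0.00794 for both, the smallest p that 126 groupings allow (adjusted p 0.0119 over 3 ratios). The levels given above already fixed the separation of both ratios between the groups, so these p-values add no further support. Counts of Cbx7 exceeded those of Cbx2 in every EpiSC library and were under them in every DE library, whereas Pcgf2 still slightly exceeded Bmi1 in DE replicate 2. The ratio of Ezh1 to Ezh2 differed by 0.73 (SE 0.31, exact permutation p 0.0556 before and after adjustment), with DE replicate 2 inside the EpiSC range; without that library it differed by 1.00 (exact permutation p 0.0179).

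**Figure D2:**
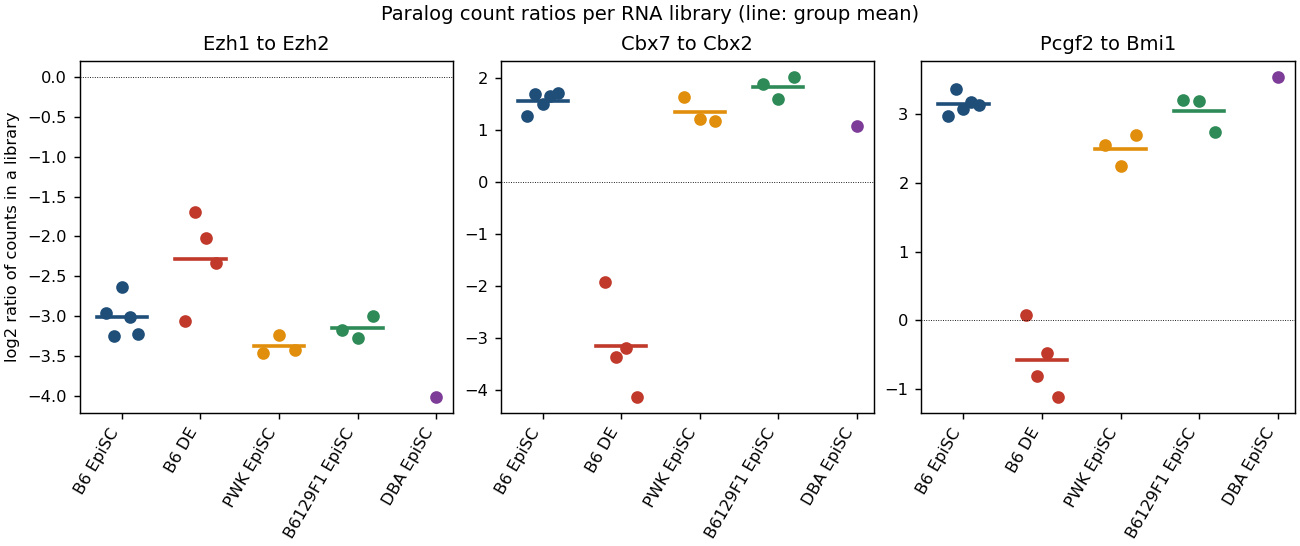
Log2 ratio of counts of 3 paralog pairs in each RNA library (points), with group means as lines and the dotted line at equal counts. The DE libraries stand apart for Cbx7 to Cbx2 and for Pcgf2 to Bmi1, and DE replicate 2 is the DE library nearest to the EpiSCs in all 3 panels.

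The other Polycomb genes of a list of known subunits showed changes in both directions. Of 9 other PRC2 genes tested, 3 were higher in DE and 2 lower, and their median log2 change was 0.17. Phf1, a Polycomb-like protein that binds DNA and methylated H3, rose from 1.55 ± 0.48 (SD, n = 5) to 5.26 ± 2.86 CPM (SD, n = 4), a log2 change of 1.82 (adjusted p 0.0041), while its relative Phf19 fell from 9.77 ± 3.13 to 1.25 ± 0.77 CPM (-2.91, adjusted p 0.00069). Epop, a subunit of the form of PRC2 that lacks Jarid2, rose (1.12, adjusted p 0.000262), and Aebp2, a partner of Jarid2 in PRC2, fell (-1.25, adjusted p 0.000123). Rbbp4, a histone chaperone found in several complexes, was the third that rose (0.32, adjusted p 0.049). Its libraries overlapped between the groups, and it was chosen after its value was seen.

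Of 25 other PRC1 genes tested, 9 were higher and 10 lower, and their median log2 change was -0.25. Cbx8, like Cbx7 a reader of H3K27me3, rose from 0.69 ± 0.24 to 6.50 ± 1.69 CPM (log2 change 3.28, SE 0.39, adjusted p 4.9e-05). Cbx6, of the same family, fell (-1.73, adjusted p 4.13e-06; chosen after its value was seen). Of the polyhomeotic genes, whose proteins polymerize and cluster PRC1, Phc1 fell from 621 ± 53.1 to 67.7 ± 19.6 CPM (-3.15, adjusted p 1.25e-06) and Phc3 fell (-2.55, adjusted p 6.18e-06), whereas Phc2 rose from 89.2 ± 9.14 to 186 ± 26.6 CPM (1.11, adjusted p 5.17e-05; chosen after its value was seen).

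Among genes of variant PRC1, which lacks a Cbx protein, Pcgf5 rose (log2 change 1.86, adjusted p 3.5e-05), as did Fbrsl1, a relative of the PRC1 partner Auts2 (2.01, adjusted p 8.2e-06). Kdm2b, which brings one form of PRC1 to CpG islands, fell from 188 ± 16.2 to 40.2 ± 22.0 CPM (-2.18, adjusted p 0.000268). Of 10 genes for enzymes and partners that remove the H2A or H3K27 marks, 1 was higher and 6 lower, and their median log2 change was -0.79. Kdm6b, an H3K27 demethylase, fell from 158 ± 36.0 to 29.0 ± 3.02 CPM (-2.39, adjusted p 5.27e-06), and Foxk1 (-2.65, adjusted p 1.42e-06) and Mbd6 (-2.42, adjusted p 2.95e-05), partners of the H2A deubiquitinase Bap1, also fell. Asxl3, of the family that activates Bap1, rose (1.90, adjusted p 0.00461).

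**Figure D3:**
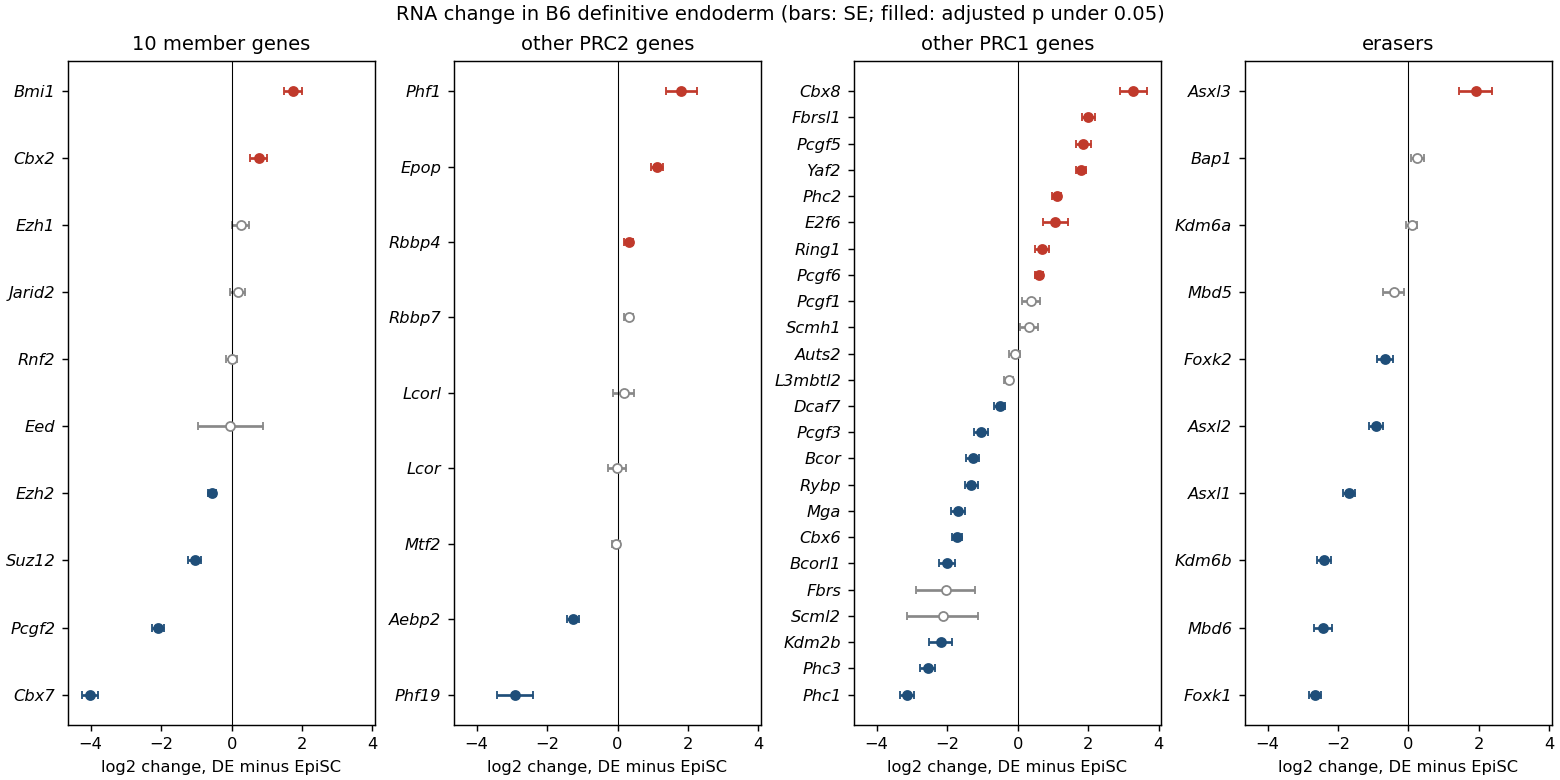
Log2 change of RNA between B6 DE and B6 EpiSCs (x axis; bars are SE) for the 10 members and other listed genes of PRC2, PRC1 and the erasers that are reported here; filled red points are higher and filled blue points lower at an adjusted p under 0.05, open grey points did not pass. Each panel holds changes in both directions, from Cbx7 at -4.02 to Bmi1 at 1.74 among the members.

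Hox genes and the cell cycle inhibitors of the Ink4a locus are classical targets of Polycomb silencing. Of 39 Hox genes only 10 passed the filter on low counts in the DE comparison. In DE 18 to 32 of the 39 genes had 0 counts per library, against 1 to 16 in B6 EpiSCs. Genes therefore passed the filter mainly through the EpiSC libraries, so the direction of their changes was largely set by that choice. Of the 10, 4 were called, each lower in DE (list median of log2 changes -2.52). A filter that asked for 10 counts in every library left none to test. Without a filter 16 of 39 were called, all lower, and with DE replicates 4 and 51 alone 11 of 19. Without DE replicate 2 or 44 the calls were 8 and 7 of 17, and without any of EpiSC replicates 2, 4, 44 and 51 only 1 of 4 to 6 genes tested was called. Hoxd13, the gene named by the rule, had 0 counts in the 4 DE libraries and 0.51 to 2.72 CPM (13 to 71 counts) in EpiSCs. Cdkn2a, which encodes p16Ink4a and p19Arf, stood at 1.48 to 22.8 CPM in B6 EpiSCs and 0.18 to 0.66 CPM in DE (log2 change -4.71, adjusted p 0.00051).

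Hox RNA summed over the 39 genes was low in every library. It was 3.81, 14.3, 8.78, 18.1 and 49.3 CPM in B6 EpiSC replicates 1, 2, 4, 44 and 51, and the feeder markers summed to 62.1, 1139, 372, 1038 and 2696 CPM in the same libraries. Both sums were lowest in replicate 1 and highest in replicate 51. In DE the Hox sums were 1.15 to 5.01 CPM, in PWK 40.4 to 43.7 CPM, in DBA 23.1 CPM and in B6.129 F1 3.94 to 5.18 CPM. The order of the libraries was not the same for both sums, since B6 EpiSC replicate 2 had more feeder RNA and less Hox RNA than replicate 44. The part of the feeder cells in the Hox and Cdkn2a results was not tested. The test called 8 of the 10 feeder markers lower in DE.

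**Figure D4:**
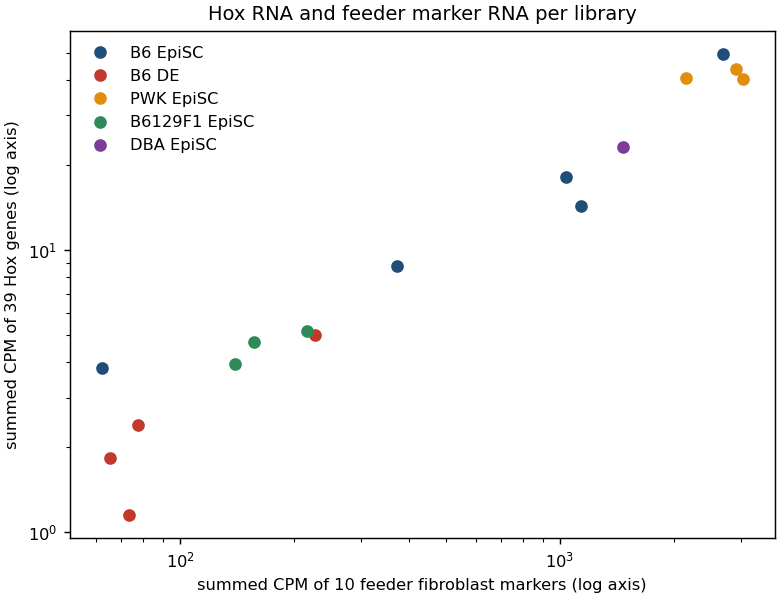
Summed CPM of 39 Hox genes (y, log axis) against summed CPM of 10 feeder fibroblast markers (x, log axis); each point is 1 of the 16 RNA libraries, coloured by group. PWK and B6 EpiSC replicate 51 lie at the top right, and DE, B6.129 F1 and B6 EpiSC replicate 1 at the lower left.

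Levels of S phase and M phase genes moved in both directions in DE. Of 20 S phase genes 10 were higher and 4 lower, and of 18 M phase genes 4 were higher and 6 lower. Their part in the lower Ezh2 level was not tested.

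Gene by gene, likeness was measured as Pearson's r of log2 CPM over the 16 RNA libraries among 9373 genes; the libraries share 2 cell states and unequal depth, so r is given as a description. Cbx7 was most like Pim2, a protein kinase gene (r = 0.995), and within the Polycomb lists like Cbx6 (0.99). Pcgf2 was most like Map1a (0.992) and likewise Cbx6 (0.965). Suz12 was most like Bicd1 (0.99) and Ezh2 most like Vps13a (0.989), and both had Mga, a DNA-binding partner of a variant PRC1, as the nearest Polycomb gene (0.948 and 0.956). Bmi1 was most like Clptm1l (0.961) and Fbrsl1 (0.905), and Cbx2 most like Prep (0.936) and Bmi1 (0.794). For Jarid2, Ezh1, Rnf2 and Eed the nearest genes were Hif1a (0.925), Camta1 (0.901), Fam91a1 (0.876) and Plod3 (0.801).

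Chromatin near the 10 genes was compared between the same cell states with the ATAC peak counts. Of 60 peaks in or within 2 kb of the genes 53 passed the filter, and 12 were more open and 10 less open in DE. These 22 are 41.5% of the peaks tested, against 57.6% of all 113870 peaks (32.6% higher, 25% lower); 21 of the 53 did not overlap between the groups, against 53.8% of all peaks. Positions are as in the deposited tables, on mm10, whose start convention is not stated; whether a peak is exonic or intronic was not analysed here.

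Peaks at the start sites of Cbx7, Pcgf2, Suz12 and Ezh2, whose RNA was lower in DE, did not pass the test. The strongest Ezh2 start-site peak (chr6:47594965-47595540) stood at 28.1, 33.6, 28.1 and 36.7 CPM in EpiSC replicates 1, 4, 44 and 51 and at 31.9, 28.0, 31.8 and 31.4 CPM in DE replicates 2, 4, 44 and 51 (log2 change -0.04, SE 0.15, adjusted p 0.815). This peak covers the whole Ezh2 promoter window with its 3 CCAAT boxes, and the uncharacterized gene F830010H11Rik lies within 2 kb. The Suz12 start-site peak (chr11:79992813-79993277), which likewise covers its window, had a log2 change of 0.22 (SE 0.18, adjusted p 0.308). The values were 0.42 (SE 0.27, adjusted p 0.197) for Pcgf2 (chr11:97698863-97699006) and -0.52 (SE 0.27, adjusted p 0.107) for Cbx7 (chr15:79932337-79932498). The Cbx7 peak passed the test with scaling by total library size, without EpiSC replicate 51 and without DE replicate 44.

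The start-site peaks of the 4 members whose RNA did not pass the test were not called either. The strongest at Ezh1 (chr11:101226337-101226631) stood at 9.92, 14.3, 16.6 and 20.1 CPM in EpiSCs and 18.1, 16.6, 14.6 and 15.0 CPM in DE (log2 change 0.08, SE 0.22). That of Rnf2 (chr1:151500672-151501285) stood at 26.4, 24.4, 16.3 and 26.0 and 25.7, 26.5, 16.2 and 20.8 CPM (-0.08, SE 0.20), and that of Jarid2 (chr13:44730561-44730861) at 23.2, 30.3, 31.4 and 25.3 and 24.9, 29.5, 27.5 and 40.1 CPM (0.14, SE 0.17). Eed had 3 small start-site peaks, all at 2.30 to 8.21 CPM in these libraries, with log2 changes of -0.35 to 0.64.

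Of 17 start-site peaks tested 2 (11.8%) were called, against 57.6% of all peaks wherever they lie. Both were at genes with more RNA in DE. The Cbx2 peak (chr11:119022796-119023181) stood at 11.5, 13.4, 14.5 and 13.5 CPM in EpiSCs and 18.5, 23.7, 22.0 and 21.3 CPM in DE. The groups did not overlap (log2 change 0.70, SE 0.19, adjusted p 0.00305). It lies at the lower-coordinate end of the Cbx2 record, with the gene Gm35829 within 2 kb. The Bmi1 peak (chr2:18676517-18676587), 0.431 kb before the start and also near Commd3, was weak, with 2 to 31 counts per library: 1.60, 1.5, 0.510 and 0.620 CPM in EpiSCs and 2.26, 1.97, 4.44 and 5.19 CPM in DE (1.60, SE 0.51, adjusted p 0.0107). The Bmi1 peak passed the filter on low counts mainly through the DE libraries. Its call was lost without EpiSC replicate 51, DE replicate 44 or DE replicate 51.

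Larger changes lay inside the genes. In Ezh2 a peak 11.7 kb from the start (chr6:47582951-47583295) stood at 1.92, 1.20, 1.28 and 0.620 CPM in EpiSCs and 21.8, 14.8, 25.6 and 21.9 CPM in DE. It was far more open in every DE library (log2 change 4.06, SE 0.32, adjusted p 3.25e-09), while Ezh2 RNA was lower. In Eed a peak 23.3 kb from the start (chr7:89957329-89957692) rose from 7.68, 7.41, 5.10 and 10.4 to 37.7, 37.8, 34.5 and 25.7 CPM (2.13, SE 0.21, adjusted p 5.72e-08). In Rnf2, whose RNA did not pass the test, a peak 15.9 kb from the start (chr1:151484880-151485055) rose by 3.28 (SE 0.53, adjusted p 2.06e-05). This Rnf2 peak was weak, with means of 0.535 CPM in EpiSCs and 5.07 CPM in DE. Both it and the Ezh2 peak passed the filter on low counts mainly through the DE libraries.

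Cbx7 had 10 peaks, of which 7 were tested. The peak with the largest change (chr15:79933803-79933978) lay 1.16 kb upstream of the start site used here, just beyond the 1 kb start-site window, and inside the gene record. It stood at 9.76, 9.52, 14.8 and 13.9 CPM in EpiSCs and 3.09, 2.96, 1.72 and 4.90 CPM in DE (log2 change -1.97, SE 0.32, adjusted p 2.6e-05). A further 2 Cbx7 peaks, 8.42 and 13.5 kb upstream of that start site, fell by 1.18 and 0.71 on the log2 scale (adjusted p 0.0124 and 0.0108). Another, 18.0 kb upstream, rose by 0.71 (adjusted p 0.00616). These further peaks were chosen after their values were seen. In Pcgf2 a peak 3.69 kb from the start (chr11:97695857-97695960) fell by 0.81 (adjusted p 0.0348), a call lost without DE replicate 51. In Bmi1, with more RNA in DE, a peak 7.19 kb from the start (chr2:18684211-18684377) fell from 5.28, 7.51, 8.67 and 8.06 to 1.24, 0.823, 1.14 and 1.15 CPM (-2.74, SE 0.39, adjusted p 4.23e-06). That Bmi1 peak passed the filter on low counts mainly through the EpiSC libraries.

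Jarid2, at 191 kb the longest of the 10 genes, held 24 of the 60 peaks. Of 21 tested, 6 were more open in DE and 3 less open, and its 2 start-site peaks did not pass the test. The largest change was a loss 20.6 kb from the nearest start site (chr13:44751839-44751988), from 5.44, 4.61, 7.14 and 7.13 CPM to 0, 0.658, 0.716 and 0 CPM (log2 change -3.82, SE 0.57, adjusted p 8.63e-06). This peak had 0 to 5 counts in DE and passed the filter on low counts mainly through the EpiSC libraries. The 6 gains lay 9.22 to 155 kb from the start, with log2 changes of 2.55 to 3.75. They were weak peaks, with means of 0.249 to 1.29 CPM in EpiSCs and 2.75 to 7.22 CPM in DE. These peaks passed the filter on low counts mainly through the DE libraries. In Ezh1 a peak 25.1 kb from the start (chr11:101201135-101201324) fell by 0.84 (SE 0.25, adjusted p 0.00595), and the 2 Suz12 peaks did not pass the test.

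**Figure D5:**
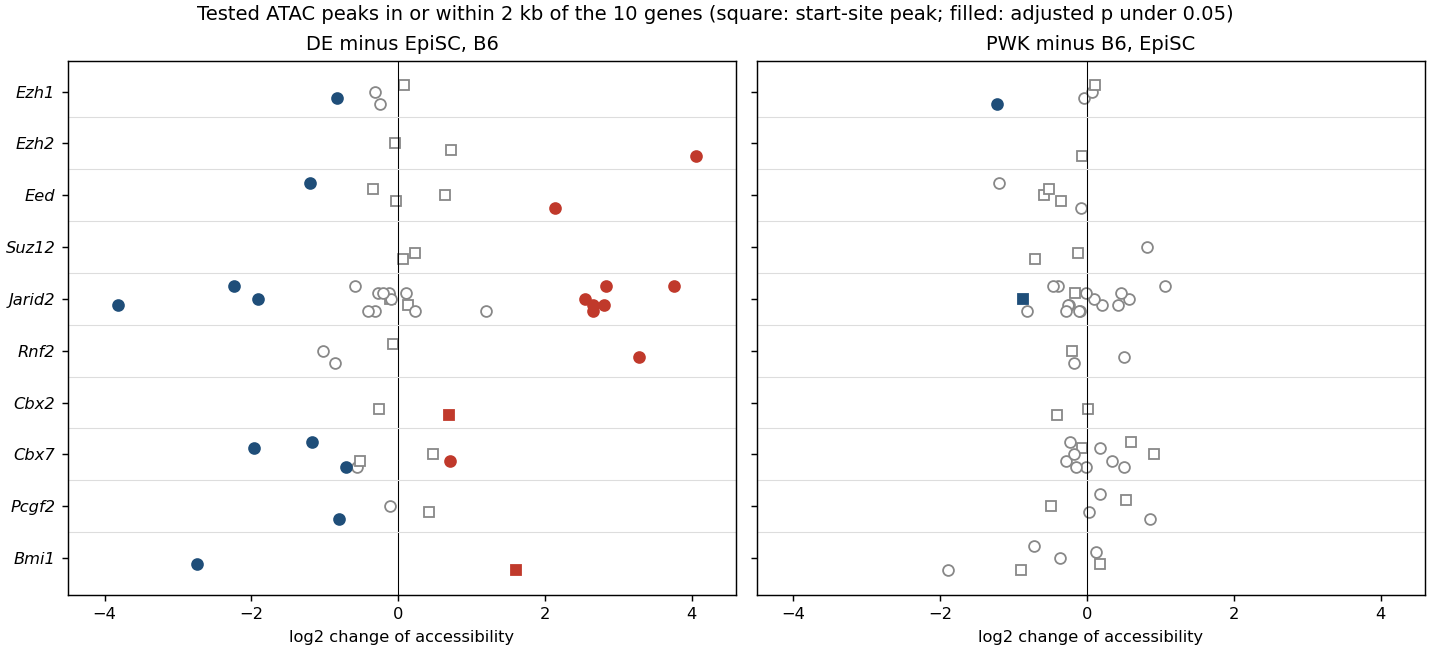
Log2 change of ATAC counts (x axis) of each tested peak in or within 2 kb of the 10 genes, for DE against B6 EpiSCs (left) and PWK against B6 EpiSCs (right); squares are start-site peaks, circles other peaks, and filled symbols passed an adjusted p of 0.05. Large changes in DE, such as the Ezh2 circle at 4.06, lie away from the start sites, and 2 peaks are filled on the right.

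The second set of comparisons asked how EpiSCs of other genetic backgrounds differ; PWK/PhJ is a wild-derived strain of Mus musculus musculus, and both PWK and B6.129 F1 were set against the same 5 B6 libraries. In PWK, 1 of 10 members was called, where 26.5% of 14822 genes were (12% higher, 14.5% lower). Bmi1 stood at 14.2, 16.5 and 14.0 CPM in the PWK libraries, above all 5 B6 values of 7.55 to 11.1 CPM (log2 change 0.73, SE 0.15, adjusted p 0.00547). It was the 1 member whose PWK libraries did not overlap B6, against 32.1% of all genes, and it was called in each of 14 alternative settings, with changes of 0.65 to 0.82. Feeder marker sums were 2148 CPM or more in the PWK libraries and 2696 CPM or less in B6; B6 replicate 51, with the largest B6 feeder sum, also had the highest B6 Bmi1 level, and the part of feeder cells in this difference was not tested.

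Ezh1 was at 17.4, 20.1 and 16.9 CPM in PWK (log2 change -0.39, SE 0.14, adjusted p 0.0607) and passed the test without B6 replicate 2 (-0.43, adjusted p 0.0478) or 51 (-0.45, adjusted p 0.0261). Cbx7 was at 158, 146 and 154 CPM (-0.19, SE 0.11, adjusted p 0.225) and passed without B6 replicate 1 (-0.27, adjusted p 0.0216). The other 7 members had log2 changes of -0.34 to 0.07.

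For the PRC2 members these were small: Ezh2 stood at 193, 188 and 181 CPM (log2 change -0.02, SE 0.07), Suz12 at 169, 170.4 and 157 CPM (-0.10, SE 0.10) and Jarid2 at 243, 246 and 245 CPM (-0.07, SE 0.05). Each of these groups of 3 overlapped the B6 range. Eed was again uneven, at 13.8, 3.70 and 11 CPM (-0.34, SE 0.99). In PRC1, Rnf2 stood at 122, 127 and 122 CPM (-0.06, SE 0.06), Cbx2 at 50.7, 63.2 and 68.3 CPM (0.05, SE 0.12) and Pcgf2 at 83.0, 78.1 and 90.4 CPM (0.07, SE 0.16), all overlapping B6. None of these 7 passed the test. The log2 ratio of Pcgf2 to Bmi1 was 2.55, 2.24 and 2.69 in PWK, under the B6 EpiSC range of 2.97 to 3.37 and above every DE library; it was not tested between strains.

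Among the other Polycomb genes 4 of 9 in PRC2 and 6 of 25 in PRC1 were called, in both directions. In PRC2, Lcor (0.68, adjusted p 0.00702) and Aebp2 (0.42, adjusted p 0.0175) rose, and Phf19 (-1.17, adjusted p 0.00823) and the histone chaperone Rbbp7 (-0.30, adjusted p 0.0105) fell. In PRC1, Fbrsl1 (0.86, adjusted p 0.00181), Scml2 (0.83, adjusted p 0.0419) and Bcor (0.50, adjusted p 0.0133) rose, and Scmh1 (-0.36, adjusted p 0.0272), Phc1 (-0.32, adjusted p 0.0103) and L3mbtl2 (-0.29, adjusted p 0.00939) fell. The Scml2 call was lost in 9 of 14 alternatives (adjusted p 0.0511 to 0.149) and the Scmh1 call in 6 (adjusted p 0.0562 to 0.0942), each time including a fit of the 2 groups alone and the fits without any 1 of the PWK libraries. The Aebp2 call was lost without PWK BioRep698 or BioRep695 (adjusted p 0.0694 and 0.0569). Of 28 Hox genes tested 1 was higher (Hoxc13) and 1 lower (Hoxd1), both under 1 CPM in all libraries of both groups. Without B6 replicate 51 the count was 19 of 27 (18 higher), and without any other single library it was 0 or 1. The Hoxc13 call was also lost with DESeq2 (adjusted p 0.0511) and with no filter (adjusted p 0.0756). Of 7 Ink4 and Cip inhibitor genes, Cdkn1a, which encodes p21, rose (0.93, adjusted p 0.00571), and Cdkn1b, which encodes p27, fell (-0.33, adjusted p 0.0321), a call lost in 6 of 14 alternatives (adjusted p 0.0546 to 0.162).

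In B6.129 F1 EpiSCs, 1 of 10 members was called, where 2.84% of all genes were (1.34% higher, 1.5% lower). Suz12 stood at 251, 231 and 247 CPM, above all B6 libraries (log2 change 0.47, SE 0.10, adjusted p 0.0376), the 1 member without overlap, against 14.5% of all genes. This call was lost when any of the 3 F1 libraries or B6 replicate 44 or 51 was left out (adjusted p 0.0575 to 0.177, changes of 0.44 to 0.51), and in a fit of the 2 groups alone (0.48, adjusted p 0.117). Ezh2 stood at 226, 201 and 211 CPM (0.18, SE 0.07, adjusted p 0.15) and passed without B6 replicate 1 (0.25, adjusted p 0.0379). The remaining 8 members did not pass the test. Jarid2 stood at 256, 263 and 255 CPM, Rnf2 at 138, 125 and 134 CPM and Cbx7 at 189, 193 and 182 CPM, with log2 changes of 0.02 (SE 0.05), 0.06 (SE 0.06) and 0.12 (SE 0.11). Ezh1 stood at 25.0, 20.7 and 26.3 CPM, Eed at 20.5, 26.0 and 12 CPM and Cbx2 at 51.6, 63.6 and 44.9 CPM, with changes of 0.04 (SE 0.14), 0.71 (SE 0.96) and -0.12 (SE 0.12). Pcgf2 at 60.1, 76.3 and 57.3 CPM and Bmi1 at 6.52, 8.37 and 8.55 CPM differed by -0.29 (SE 0.16) and -0.18 (SE 0.16). All 8 groups overlapped B6.

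Mtf2, a Polycomb-like partner of PRC2, rose from 127 ± 9.61 to 160.0 ± 4.94 CPM (0.34, adjusted p 0.0374), the 1 call among 9 other PRC2 genes. It was lost without any of the 3 F1 libraries, without B6 replicate 44 or 51 and in a fit of the 2 groups alone (adjusted p 0.0572 to 0.177). None of 25 other PRC1 genes was called by edgeR, with 5 at an unadjusted p under 0.05. DESeq2 called 2, both lower, and edgeR without B6 replicate 1 called 1 higher and 1 lower. Of 28 Hox genes 0 were called by edgeR (16 at an unadjusted p under 0.05) and 8, all lower, by DESeq2, as were 12 by edgeR without B6 replicate 1. Cdkn1a fell (-1.32, adjusted p 0.0241), a call lost without any 1 of the F1 libraries and in a fit of the 2 groups alone (adjusted p 0.0575 to 0.154). Feeder marker sums were 139.2 to 215.6 CPM in F1 and 62.1 to 2696 CPM in B6, and their part was not tested.

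PWK and B6.129 F1 were also compared with each other, in the same fit. In all, 3 of 10 members were called, where 40% of all genes were (20.7% higher, 19.4% lower): Bmi1 was higher in PWK (log2 change 0.91, SE 0.18, adjusted p 0.00264), Suz12 lower (-0.57, SE 0.11, adjusted p 0.00274) and Ezh1 lower (-0.42, SE 0.15, adjusted p 0.0478). For 7 of 10 members these groups did not overlap, against 62.5% of all genes. The Ezh1 call was lost in 8 of 12 alternatives (adjusted p 0.0509 to 0.152): with RLE scaling, total library size as scaling, no filter or 10 counts in every library, and without PWK BioRep698, F1 replicate 4, or the PWK or the F1 library whose column matches no sample title of its strain. Of the other PRC2 genes 2 of 9 were higher and 4 lower, with Lcorl at -1.35 (adjusted p 0.00819), Phf19 at -1.21 (adjusted p 0.00776) and Mtf2 at -0.35 (adjusted p 0.00525); without F1 replicate 9 the count was 3. Of the other PRC1 genes 6 of 25 were higher and 3 lower, with Scml2 at 1.03 (adjusted p 0.0222), Bcor at 0.76 (adjusted p 0.00222) and Pcgf1 at -0.56 (adjusted p 0.0274). That count fell from 9 to 4 without PWK BioRep698 or BioRep695 and to 3 without F1 replicate 4 or the F1 library that matches no title. The Scml2 call was lost without each of these 4 libraries (adjusted p 0.0544 to 0.0863) and the Pcgf1 call in 5 alternatives (adjusted p 0.0572 to 0.0957). Of 28 Hox genes 23 were higher in PWK. This count was 15 without PWK BioRep698, 9 to 13 without any 1 of the F1 libraries, and 1 of 1 tested with 10 counts in every library. Of 7 Ink4 and Cip genes 3 were higher in PWK, with Cdkn2a at 3.54 (adjusted p 0.00388), and Cdkn1b was lower (-0.37, adjusted p 0.0202; lost in 4 alternatives, adjusted p 0.0642 to 0.0765). In the same comparison all 10 feeder markers were higher; the part of feeder cells in these calls was not tested.

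The single DBA library has no replicate and no test. Its levels lay inside the range of the 5 B6 libraries for Ezh2 (199 CPM), Eed (20.0), Suz12 (169.7), Cbx7 (149.7) and Bmi1 (9.88). Ezh1, at 12.4 CPM, was under the lowest B6 value of 19.5 CPM. Jarid2 (278 CPM), Rnf2 (136), Cbx2 (70.8) and Pcgf2 (115) were above the highest B6 values of 266, 134, 62.4 and 97.9 CPM.

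Near the 10 genes the EpiSC peak table held 65 peaks, 57 of them tested between PWK and B6. None was more open in PWK and 2 were less open, where 5.11% of 137667 peaks were called (1.42% higher, 3.68% lower); 9 of the 57 did not overlap between the groups, against 26.3% of all peaks. The Jarid2 start-site peak (chr13:44730561-44730861) stood at 22.8, 31.9, 31.2 and 25.0 CPM in B6 replicates 1, 4, 44 and 51, at 13.7 and 16.3 CPM in the 2 PWK libraries and at 29.6 CPM in DBA (log2 change -0.88, SE 0.22, adjusted p 0.031). A peak under 2 kb from the far end of Ezh1 and near Cntnap1 (chr11:101189632-101190145) stood at 27.2, 30.8, 46.5 and 25.6 CPM in B6 and 16.8 and 11.2 CPM in PWK (-1.22, SE 0.27, adjusted p 0.0152). Both calls were lost without the PWK library whose column matches no sample title, and the Jarid2 call also with total library size as scaling, with a filter of 10 counts in every library, and without any of PWK BioRep698 and B6 replicates 4 and 44. PWK reads were set against peaks and sequence of the mm10 build, a C57BL/6J genome, and the part of sequence differences between the strains in these values was not tested. In simulated data with 200 changed peaks, where the cutoff was stricter than here, this comparison recovered 2% of 2-fold and 29% of 4-fold changes. Peaks that did not pass may still differ.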

How the data were processed

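RNA-seq (poly(A) selection, stranded TruSeq libraries) and ATAC-seq values are counts as deposited by the authors: per gene in 2 tables (29555 gene identifiers, 29270 with a symbol) and per peak in 2 tables (158917 and 181059 peaks). The submitters' processing notes name Salmon, featureCounts and DESeq2 for RNA, fastp, Bowtie2, MACS2, featureCounts and DESeq2 for ATAC, and mm10; versions, and whether peaks were called on pooled samples, are not given in the sources used here. Of 30 samples 27 were used; 3 PWK definitive endoderm samples were not analysed here, nor were 17 columns of other series. The names of 3 columns (2 PWK, 1 F1) hold a number or word found in no sample title of their strain, and these were placed by strain only.

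Counts were tested with edgeR 4.0.16 (TMM, filterByExpr, quasi-likelihood F test, Benjamini-Hochberg over all features, called at an adjusted p under 0.05) in R 4.3.3 and checked on simulated data. Of simulated 2-fold changes the test recovered 22% (RNA, DE), 56% (RNA, PWK), 16% (ATAC, DE) and 2% (ATAC, PWK). Of 4-fold changes it recovered 64%, 77%, 62% and 29% in the same order. Each simulation changed only 200 features, whereas 62% of genes (RNA, DE) and 5.11% of peaks (ATAC, PWK) were called in the data. The Benjamini-Hochberg cutoff was therefore stricter in the simulations, and the recovered shares are not the power of the main tests. A gene or peak that did not pass may still differ. The DE comparison used the B6 libraries, and the strain comparisons 1 fit of B6, PWK and B6.129 F1. Paralog ratios were tested by exact permutation. Counting limits (a count of 0 allows 3) cover counting error only, since the counts carry no molecular identifiers. Replicates differed by more than sampling noise (smallest chi-square per feature 2.77 over 51 pairs). The 5 B6 EpiSC columns are equal in both gene tables, so both RNA contrasts share them.

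Members and lists were chosen with earlier results of these data known. Named were the 10 members, up to 3 called genes without overlap per list and direction, and, per member, the strongest start-site peak (within 1 kb of a start, or of either end for Cbx2) and the called peak with the largest change; other names are marked. Of the listed PRC1 genes, 1 is counted but not reported here. Alternatives were other scalings, DESeq2 1.42.0, no filter or 10 counts in every library, each library left out, the replicate block, subsets of DE libraries, only the 2 groups compared, and windows of 20 kb or start sites only.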

Additional observations from a re-analysis of the deposited data

Results flagged for a closer look

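Of 73 groups of 4 or 5 libraries examined, 2 held a library far from the others by Dixon's criterion, which chance gives in about 1 of 20 groups. At the Ezh2 start-site peak, DE replicate 4 had 28 CPM where the other 3 DE libraries had 31.4 to 31.9 CPM. At the Rnf2 start-site peak in the EpiSC peak table, B6 EpiSC replicate 44 had 15.7 CPM where the other 3 had 24.4 to 25.2 CPM.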

How the results depend on the processing

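No called change of a member or of a peak named here changed direction. Cbx7, Pcgf2, Suz12, Ezh2 and Bmi1 kept their DE calls in all 18 alternatives each (Cbx7 -4.18 to -3.85, Suz12 -1.41 to -0.79, Bmi1 1.22 to 2.10 on the log2 scale). Leaving out 1 library in turn gave 5 to 8 members called in DE, 1 to 2 in PWK and 0 to 2 in F1 against B6, 2 to 3 in PWK against F1, 22 to 25 peaks in DE and 0 to 2 in PWK; the differences of log2 ratios ranged from -5.125 to -4.39 (Cbx7 to Cbx2), -3.945 to -3.548 (Pcgf2 to Bmi1) and 0.5414 to 0.9962 (Ezh1 to Ezh2). A fit of only the 2 groups compared gave 0 members in F1 against B6 and 6 in PWK against F1, with fewer libraries behind the spread. At least 10 counts in every library left 7 DE peaks and 1 PWK peak called, since fewer peaks were tested; 20 kb windows gave 45 and 4, start sites alone 2 and 1, and total library size as scaling 1 in PWK, where the cause was not tested. Replicate numbers are shared by B6 EpiSC and DE libraries. Each EpiSC RNA library with a shared number correlated best with the DE library of its own number (0.0881 to 0.237). Among ATAC libraries only replicate 51 did (same-numbered libraries at -0.00517 to 0.0485). The RNA libraries may thus be paired. The main tests left the numbers out, and the replicate block is the alternative that uses them. With the replicate block Cbx2 RNA (0.67, adjusted p 0.0766) and the Bmi1 start-site, Ezh1 and Pcgf2 peaks were not called. The Pcgf2 peak was not called in the same libraries without the block either (-0.81, adjusted p 0.1). Within-number differences of the ratios were -4.791 (Cbx7 to Cbx2) and -3.771 (Pcgf2 to Bmi1), exact permutation p 0.125, the smallest 4 pairs allow. Depth limits most Hox genes, the Bmi1 start-site peak, and the peaks inside Jarid2 and Rnf2 that were more open in DE.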
